A study of Homo sapiens with 6 samples.

Results

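The subunits of the oxidative phosphorylation system were examined in MDAMB468, a cell line from a human triple negative breast cancer, with and without overexpression of IGFBP2, a secreted protein that binds insulin-like growth factors. The members were the protein-coding genes whose symbols name subunits of complexes I to V (the NDUF, SDH, UQCR, CYC1, COX4 to COX8 and ATP5 series and the MT-ND, MT-CO, MT-CYB and MT-ATP genes). Of 10487 genes listed by the authors, 92 were members, 79 of them encoded in the nucleus and 13 in mitochondrial DNA. The 3 control replicates are given as wild type and untreated in the sample labels. The 3 IGFBP2 overexpression replicates, also untreated, came from MDAMB468-VHP-IGFBP2 cells, which had received a lentiviral, catalytically inactive Cas9 fused to transcriptional activators, were selected with blasticidin, then received a guide RNA for IGFBP2 and were sorted by a fluorescent marker. Whether the control cells carried the activator without a guide is not given in the sources used here, so the activator, the selection, the sort and IGFBP2 itself cannot be told apart in the comparison. RNA came from 3 biological replicates and was sequenced from the 3′ end of polyadenylated transcripts, and values are CPM, the counts of a gene scaled to a common library size.

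Oxidative phosphorylation passes electrons from NADH through complex I, and from succinate through complex II, to ubiquinone, then through complex III and cytochrome c to complex IV, which reduces oxygen. Complexes I, III and IV pump protons across the inner mitochondrial membrane, and complex V, the ATP synthase, uses the returning protons to make ATP. Complex II is encoded wholly in the nucleus, whereas the other complexes mix nuclear subunits, made in the cytosol and imported, with a core made inside the mitochondrion, so their supply depends on both genomes.

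The listed genes held 2497353 to 4579587 reads per library. IGFBP2, the targeted gene, rose in the overexpression libraries (log2 fold change 2.73, standard error 0.33, adjusted p = 0.0148 from limma over all genes). All 9 breast epithelial markers were listed (EPCAM, CDH1, EGFR and keratins), whereas 0 of 4 leucocyte and 0 of 3 endothelial markers were, and 1 of 6 fibroblast markers, COL1A1, was. Of the 3 receptors by whose low levels triple negative cells are defined, ESR1 and PGR were not listed and ERBB2 was.

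No member passed the test. At an adjusted p under 0.05 (limma with Benjamini-Hochberg adjustment over 10487 genes), 0 of 92 members differed between the groups, where 0.629% of all genes did. At an unadjusted p under 0.05, 4 of 92 members (4.35%) differed, SDHD higher and NDUFA6, UQCR10 and NDUFB6 lower, against 13.0% of all genes. Limma voom, which fits weighted log values of the recovered reads, also called 0 members. All overexpression libraries lay above all control libraries for 4 members (SDHD, SDHB, NDUFV2 and MT-ND4L), where 9.43% of all genes did so, and below them for 5 (NDUFA6, UQCR10, NDUFV1, NDUFA11 and ATP5F1E), where 8.61% of all genes did so. The data also bound the size of the differences. The 95% interval of the fold change lay inside a 2-fold change in either direction for 89 of 92 members (96.7%), against 77.3% of all genes. The exceptions were SDHD, NDUFB6 and NDUFB7. For 62 members it lay inside a 1.5-fold change, against 2504 of 10487 genes. The median standard error was 0.19 over members and 0.22 over all genes, and the lowest mean was 15.0 and 3.06 CPM. These shares therefore also reflect how precisely the genes were measured. Since the values are relative to all reads of a library, a change shared by all transcripts would not be seen, and in bulk RNA fewer expressing cells and less RNA per cell cannot be told apart.

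By complex and encoding genome, the median differences were small. The median log2 fold change was -0.02 over the 79 nuclear members and 0.02 over the 13 mitochondrial members, against 0.0001 over all genes. Among nuclear members it was -0.07 for the 36 of complex I, 0.22 for the 4 of complex II, -0.0042 for the 9 of complex III, -0.03 for the 12 of complex IV and -0.02 for the 18 of complex V. Complex IV spanned the narrowest range of these, from -0.16 for NDUFA4 to 0.12 for COX6C, and complex I a wider one, from -0.57 for NDUFB6 to 0.22 for NDUFV2. Members were about evenly split in sign, with 43 above 0 and 49 below.

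**Figure D1:**
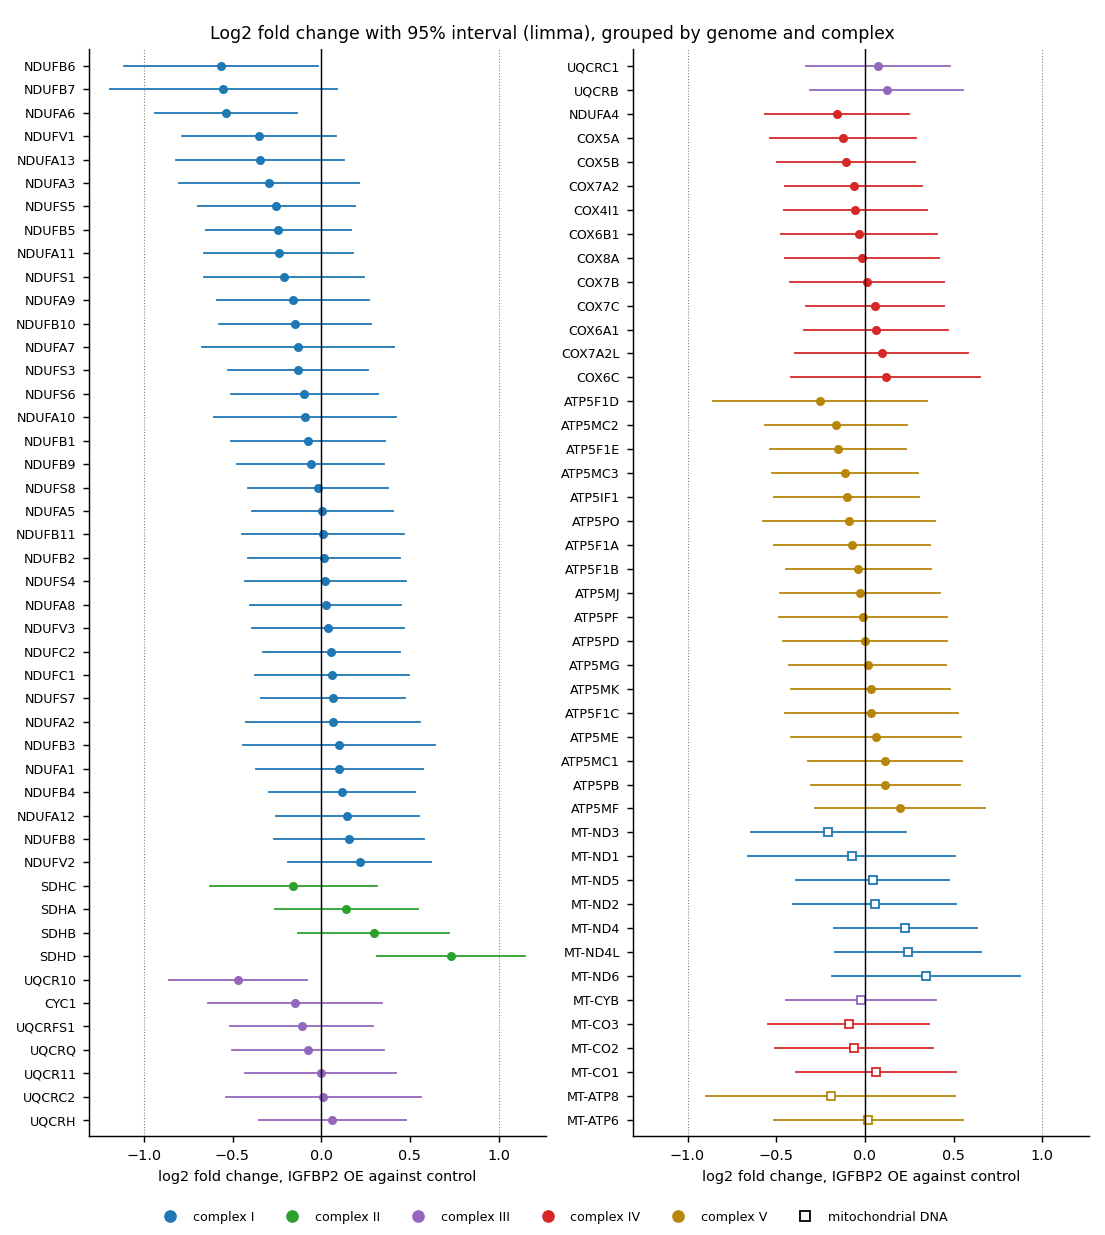
Log2 fold change of single subunit genes, IGFBP2 overexpression (OE) against control, with its 95% interval from limma, grouped by genome and by complex (colour; filled circles nuclear, open squares mitochondrial DNA). Dotted lines mark a 2-fold change, which only the intervals of SDHD, NDUFB6 and NDUFB7 cross.

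Complex I, NADH dehydrogenase, has the most subunits. The flavoprotein pair that receives electrons from NADH had fold changes of opposite sign, neither past the test. NDUFV1 was at 172, 228 and 169 CPM in control replicates 1, 2 and 3 and at 149, 154 and 139 CPM in the overexpression replicates, and NDUFV2 was at 268, 231 and 216 against 280, 273 and 276 CPM. In neither gene did the groups overlap, and the log2 fold changes were -0.35 and 0.22 (adjusted p = 0.486 and 0.665, limma).

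NDUFA6, an accessory subunit of the LYR-motif family, was the complex I member with the smallest p. It was at 316, 301 and 338 CPM in the control replicates and at 203, 215 and 241 CPM in the overexpression replicates, with 521 to 1425 reads per library. Every overexpression library was below every control library. The log2 fold change was -0.53 (standard error 0.18, 95% interval -0.93 to -0.14, adjusted p = 0.257, limma). NDUFB6 and NDUFB7, accessory subunits of the membrane arm, had slightly larger differences and more scatter. NDUFB6 was at 28.4, 17.0 and 22.2 CPM in control and 18.3, 13.6 and 12.5 CPM in overexpression replicates (log2 fold change -0.57, adjusted p = 0.366, limma), and without control replicate 1, its highest library, the log2 fold change was -0.39. NDUFB7 was at 198, 146 and 123 CPM against 152, 80.4 and 92.0 CPM (log2 fold change -0.55, adjusted p = 0.45, limma), and the log2 fold change was -0.36 without control replicate 1, -0.37 without overexpression replicate 2 and -0.82 without overexpression replicate 1. The groups overlapped in both genes.

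Complex II, succinate dehydrogenase, joins the citric acid cycle to the chain. SDHA carries the flavin and oxidises succinate, SDHB holds the iron-sulfur clusters, and SDHC and SDHD anchor the enzyme in the membrane and bind ubiquinone. SDHD had the smallest p and the largest log2 fold change in size of all 92 members. It was at 11.3, 11.1 and 10.5 CPM in the control replicates (51, 40 and 26 reads) and at 22.2, 17.8 and 17.1 CPM in the overexpression replicates (57, 55 and 52 reads). The groups did not overlap, and the control libraries lay close together. The mean was 11.0 ± 0.42 CPM in control cells and 19.0 ± 2.79 CPM in overexpression cells (SD, n = 3 each), a log2 fold change of 0.73 (standard error 0.18, 95% interval 0.32 to 1.15) that missed the threshold (adjusted p = 0.146, limma). The difference rests on few reads, and the annotation names 6 pseudogenes after SDHD, with which 3′ reads could be shared. The other 3 subunits did not follow SDHD closely. SDHB was at 31.7, 33.7 and 27.9 CPM against 44.4, 35.2 and 35.8 CPM, again without overlap (log2 fold change 0.29, adjusted p = 0.561, limma). SDHA was at 110, 110 and 114 CPM against 118, 113 and 140 CPM (log2 fold change 0.14), and SDHC, the partner of SDHD in the membrane, was at 129, 111 and 89.0 CPM against 99.4, 84.9 and 109 CPM (log2 fold change -0.16).

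SDHD lies on chromosome 11 of GRCh38 from 112086824 to 112120016 on the plus strand (GENCODE 44), head to head with TIMM8B, a chaperone of mitochondrial protein import that ends at 112086798. TIMM8B, chosen for its place after the values of SDHD were seen, was at 319, 266 and 405 CPM in control and 276, 355 and 365 CPM in overexpression replicates (log2 fold change 0.02). The RefSeq promoters, 250 bases before to 50 after the start, were searched on both strands for the core motif of NRF1 (GCGCATGC) and for an ETS motif of the kind that GABP binds (CCGGAAG), because both factors are known regulators of nuclear respiratory genes. Both were found upstream of SDHD, and NDUFA6, which differed in the other direction, also held the NRF1 motif. UQCR10 and NDUFB6, searched in the same way, held neither of these motifs, nor the YY1 motif described below. The windows below run 5′ to 3′ along each gene, with the match in capitals:
SDHD, NRF1 motif, chr11:112086752-112086781, plus strand: cagctgtgtttGCGCATGCgcgacgggtgt
SDHD, ETS motif in reverse complement, chr11:112086785-112086814, plus strand: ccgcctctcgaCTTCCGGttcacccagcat
NDUFA6, NRF1 motif in reverse complement, chr22:42090920-42090949, minus strand: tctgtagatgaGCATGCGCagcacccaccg
These are RefSeq sequences of GRCh38.p14. The NRF1 match of SDHD overlaps a second one on the other strand, shifted by 2 bases. The NRF1 window of SDHD lies inside the annotated TIMM8B gene and the ETS window crosses its end. Neither match is therefore particular to SDHD. Among nuclear members, 65 of 79 had a promoter sequence, of which 12 (18.5%) held the NRF1 motif and 20 (30.8%) the ETS motif, against 5.79% and 20.7% of the 8551 listed genes with a promoter. A further motif, that of YY1 (AAGATGGC), was in 12 of the 65 (18.5%), NDUFA6 among them, against 6.0%. A match of letters is a description only.

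Complex III passes electrons from ubiquinol to cytochrome c. UQCR10, a small subunit of this complex, had the lowest log2 fold change of its 9 nuclear members. Its gene lies on chromosome 22, whose listed genes had a median log2 fold change of -0.34. Setting chromosome medians equal across libraries, which shifts all genes of a chromosome alike, put UQCR10 at -0.10. UQCR10 was at 161, 161 and 167 CPM in the control replicates and at 108, 119 and 125 CPM in the overexpression replicates. The groups did not overlap, and the gap between them exceeded the range within either. The log2 fold change was -0.47 (standard error 0.17, 95% interval -0.86 to -0.08, adjusted p = 0.294, limma). CYC1, the cytochrome c1 that hands electrons to cytochrome c, was at -0.15 and UQCRB at 0.12 on the log2 fold change scale. The remaining 6, the UQCRC1 and UQCRC2 core proteins and the iron-sulfur protein UQCRFS1 included, lay between -0.11 and 0.07.

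Complex IV, cytochrome c oxidase, had no member at an unadjusted p under 0.05. The log2 fold changes of COX5A and COX5B, subunits that surround the catalytic core, were -0.12 and -0.11, and that of NDUFA4, first described in complex I but a subunit of complex IV, was -0.16. COX4I1, the ubiquitous form of the largest nuclear subunit, was at 859, 871 and 1004 CPM in control and 810, 930 and 890 CPM in overexpression replicates (log2 fold change -0.05). Several of these subunits have a second form made chiefly in muscle, testis, lung or under low oxygen. In each of these pairs the common form was listed (COX6A1, COX6B1, COX7A2, COX7B and COX8A, with log2 fold changes from -0.06 to 0.06) and the restricted form (COX4I2, COX6A2, COX6B2, COX7A1, COX7B2, COX8C and NDUFA4L2) was not listed. COX7A2L, a relative of COX7A2 that acts in supercomplexes of complexes III and IV, was at 0.09. The table was limited by the authors to genes averaging over 5 CPM in at least 1 condition, so the restricted forms did not pass in either group in the table. Of 103 protein-coding genes in GENCODE 44 that fit the naming rule, 11 were not listed, these 7 and ATP5MGL, UQCRHL, ATP5MF-PTCD1 and NDUFC2-KCTD14. The listed member with the lowest mean was SDHD, and its 11.0 CPM in control cells was above the filter, so no member entered the table through a single group.

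Complex V, ATP synthase, had no nuclear member at an unadjusted p under 0.05. The lowest log2 fold change was in ATP5F1D, the delta subunit of the rotor (-0.25), where control was at 56.6, 54.0 and 41.6 CPM and overexpression at 60.4, 40.0 and 30.5 CPM, with the highest and the lowest library both in the overexpression group. The highest was in ATP5MF (0.20), a subunit of the membrane part. The 3 genes that encode the identical mature subunit c of the rotor ring, ATP5MC1, ATP5MC2 and ATP5MC3, had log2 fold changes of 0.11, -0.16 and -0.11. ATP5IF1, which inhibits ATP hydrolysis by the enzyme and is not a subunit of the working motor, was at 386, 454 and 375 CPM against 350, 377 and 402 CPM (log2 fold change -0.10).

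**Figure D2:**
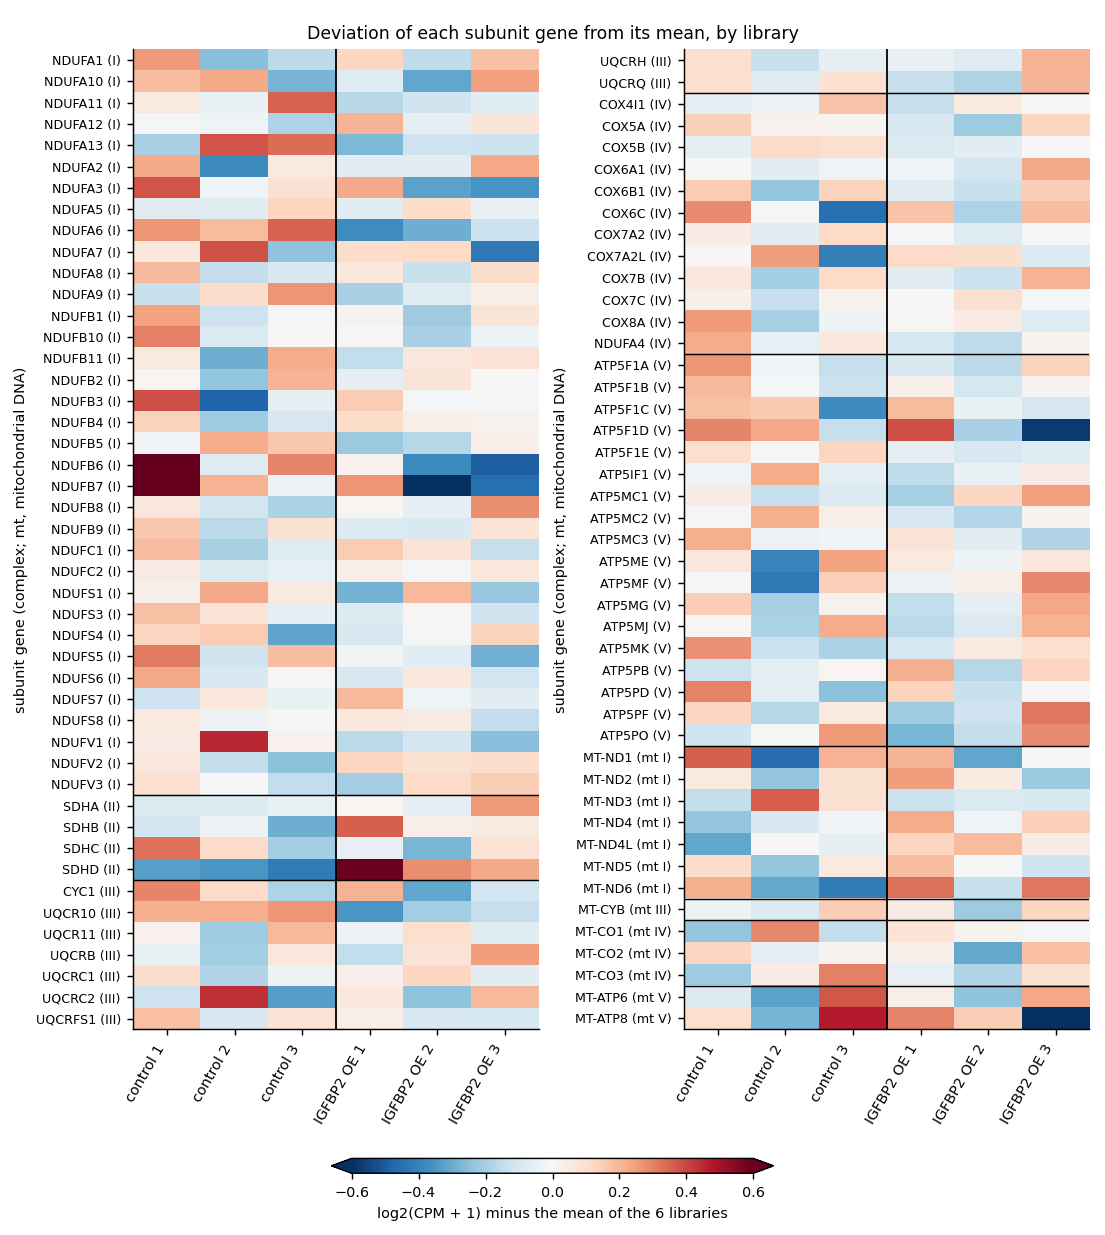
Each row is a subunit gene and each column a library, coloured by the log2(CPM + 1) value minus the mean of the 6 libraries, with the complex in parentheses (mt, mitochondrial DNA). No complex separated the 3 control from the 3 overexpression columns as a block, while single rows such as SDHD, NDUFA6 and UQCR10 did.

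NDUFA6 and UQCR10 are the only members on chromosome 22, where the median of all listed genes was lower in the overexpression libraries. NDUFA6 lies at 42085526 to 42090884 and UQCR10 at 29767369 to 29770413 (GRCh38). The 260 listed genes of that chromosome, examined after the values of NDUFA6 and UQCR10 were seen, had a median log2 fold change of -0.34, and 227 of them were below 0. All overexpression libraries lay below all control libraries for 89 of these genes (34.2%), against 8.61% of all genes. Of the 23 nuclear chromosomes, it had the lowest median, followed by chromosome 21 (-0.14) and chromosome 9 (-0.08), and the highest was 0.06. The chromosome 22 median lay 0.15, 0.17 and 0.24 above the mean of the libraries in control replicates 1, 2 and 3 and at -0.22, -0.24 and -0.05 in overexpression replicates 1, 2 and 3. Of the 260 genes, 70 had a lower log2 fold change than NDUFA6 and 89 a lower one than UQCR10. When the median of each chromosome was set equal across libraries, the log2 fold change was -0.17 for NDUFA6 and -0.10 for UQCR10. In that setting 1 member, SDHD, had an unadjusted p under 0.05. The setting shifts all genes of a chromosome alike within a library. The smaller values of NDUFA6 and UQCR10 therefore follow from the chromosome median and test no cause. Other mitochondrial genes of chromosome 22 were the mitochondrial ribosomal protein MRPL40 (-0.43), SMDT1 of the calcium uniporter (-0.39) and TOMM22 of the import pore (-0.30), all chosen by position and none past the threshold. The cause of the lower values across this chromosome was not tested.

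**Figure D3:**
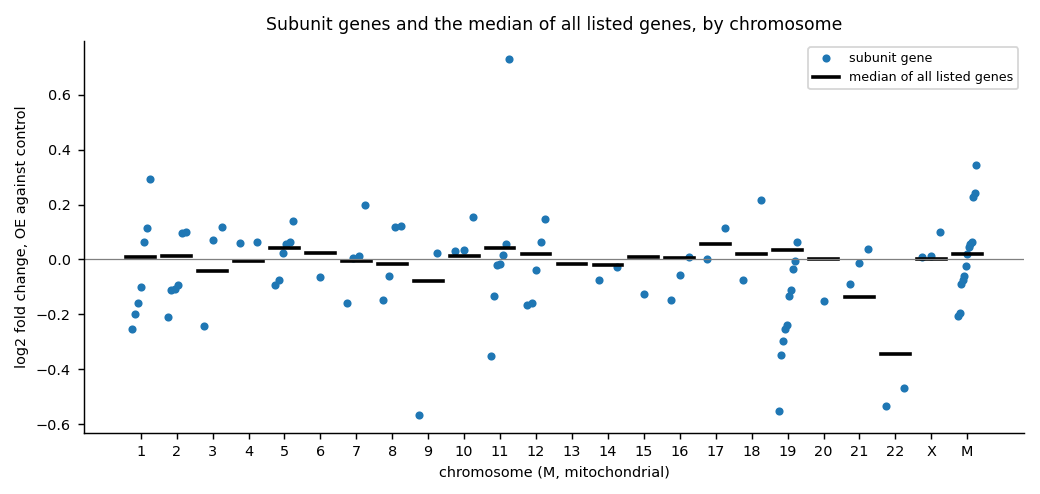
Log2 fold change of the subunit genes (points) by chromosome, with the median of all listed genes on each chromosome (bars). The bar of chromosome 22 sits at -0.34 with both of its subunit genes below it, and that of every other nuclear chromosome lies between -0.14 and 0.06.

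Chromosome 19 carries more members than any other nuclear chromosome, and there most members had values below 0. Of its 10 members, 9 had a log2 fold change below 0, NDUFB7, NDUFA13, NDUFA3 and NDUFA11 of complex I among them, with a median of -0.19. Of the 767 listed genes of the chromosome, 352 (45.9%) were below 0, with a median of 0.03. None passed the test, and this count was noticed after the values were seen.

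The mitochondrial genome encodes 7 subunits of complex I, 1 of complex III, 3 of complex IV and 2 of complex V, and all 13 were listed. Except for MT-ND6 they are read from the same strand of the circle, as long precursor transcripts that are cut at the transfer RNAs between the genes. Their reads made up 7.20% to 8.55% of all listed reads. Summed, they came to 78429 ± 6818 CPM in control and 78308 ± 6061 CPM in overexpression cells (SD, n = 3 each), and the summed nuclear members to 22950 ± 1522 and 22182 ± 1014 CPM. The ratio of mitochondrial to nuclear sums was 3.04, 3.49 and 3.74 in the control and 3.78, 3.33 and 3.48 in the overexpression replicates, so the groups overlapped and the balance of the genomes differed by less than its spread between replicates.

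**Figure D4:**
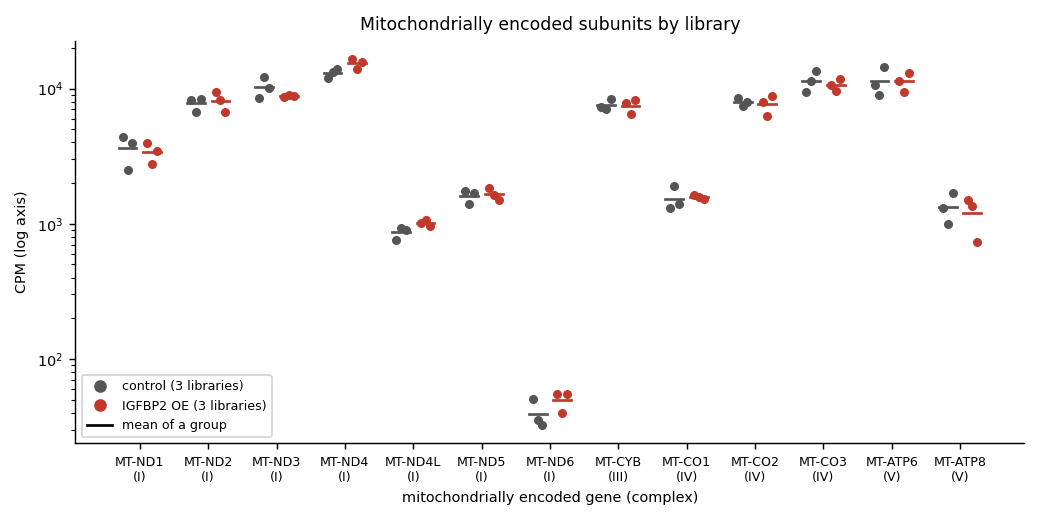
CPM on a log axis of the 13 mitochondrially encoded subunits, grouped by complex (in parentheses), with a point for each of 3 control and 3 overexpression libraries and a bar for the mean of each group. The groups overlap for every gene but MT-ND4L.

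Within complex I, MT-ND4L and MT-ND4, which form part of the proton-pumping membrane arm, were the pair with the most regular difference. MT-ND4L was at 753, 937 and 900 CPM in control and 1021, 1068 and 964 CPM in overexpression replicates, without overlap (log2 fold change 0.24, adjusted p = 0.63, limma). MT-ND4 was at 12062, 13271 and 13982 against 16532, 13923 and 15614 CPM, with control replicate 3 above overexpression replicate 2 (log2 fold change 0.23). MT-ND6, the only member encoded on the opposite strand, was at 50.6, 35.0 and 32.3 CPM against 55.0, 39.7 and 54.5 CPM. It had 80 to 228 reads per library, the fewest of the 13. Its log2 fold change of 0.34 was the highest of the 13 (standard error 0.23, adjusted p = 0.59, limma). MT-ND3 had the lowest, -0.21, with control replicate 2 at 12166 CPM and the other 5 libraries between 8574 and 10077 CPM. MT-ND1, MT-ND2 and MT-ND5 lay between -0.07 and 0.06. The log2 fold change was -0.02 for MT-CYB, the cytochrome b of complex III, and 0.06, -0.06 and -0.09 for MT-CO1, MT-CO2 and MT-CO3, the catalytic core of complex IV.

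The pairs MT-ATP8 with MT-ATP6 and MT-ND4L with MT-ND4 each share a messenger RNA and overlap in reading frame, so a read in the shared bases cannot be given to either gene alone. The overlaps are shown with 18 bases on each side, overlap in capitals, plus strand of GRCh38:
MT-ATP8 and MT-ATP6, chrM:8509-8590: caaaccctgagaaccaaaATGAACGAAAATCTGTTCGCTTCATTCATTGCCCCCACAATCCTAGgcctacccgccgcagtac
MT-ND4L and MT-ND4, chrM:10742-10784: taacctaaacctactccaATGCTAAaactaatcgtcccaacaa
The capitals span 46 bases in the first pair and 7 in the second, and both stretches open with the start codon of the downstream gene. MT-ND4L stood at 6.17% to 7.67% of MT-ND4 in the 6 libraries. MT-ATP8 stood at 12.3%, 11.3% and 11.7% of MT-ATP6 in the control and at 13.1%, 14.3% and 5.58% in the overexpression replicates. Overexpression replicate 3 was therefore apart from the other 5 in this ratio, at 731 CPM (2226 reads) of MT-ATP8, where the other libraries held 1003 to 1693 CPM, while MT-ATP6 in it, at 13103 CPM, lay within the range of the others. With that library the log2 fold change of MT-ATP8 was -0.19 and without it 0.13, and that of MT-ATP6, the proton channel subunit, was 0.02 with all libraries.

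**Figure D5:**
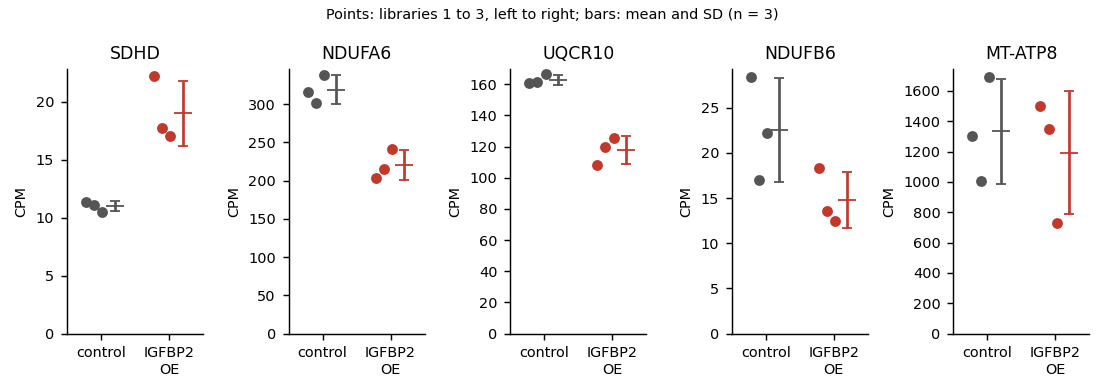
CPM in each library for 5 subunit genes, with axes from 0 and the mean and SD of each group (n = 3) beside the points. SDHD was higher and NDUFA6 and UQCR10 lower in all overexpression libraries, NDUFB6 overlapped, and MT-ATP8 was low in overexpression replicate 3 alone.

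Genes that build, feed or regulate the complexes were read from lists. Each had 0 genes past the adjusted threshold, which 0.629% of all genes passed, so in lists of this size 0 is little different from all genes. Of 61 assembly factors 59 were listed, and 5 (8.47%) had an unadjusted p under 0.05, against 13.0% of all genes. They were TMEM126A of complex I assembly, with a positive log2 fold change, and BCS1L, COX10, COX16 and UQCC2, with negative ones. The median over the list was -0.06. The groups did not overlap for 13 of the 59, where 9.43% of all genes lay wholly above control and 8.61% wholly below. BCS1L, which inserts the iron-sulfur protein into complex III, was at 39.3, 28.6 and 35.2 CPM in control and 20.3, 23.6 and 21.4 CPM in overexpression replicates, without overlap (log2 fold change -0.63, adjusted p = 0.229, limma). Among 15 genes for electron carriers, nucleotide and metabolite transport and the complex I subunit NDUFAB1, 0 reached that p, and the smallest was in SLC25A6, an adenine nucleotide translocase (log2 fold change -0.45). CYCS, cytochrome c itself, had a log2 fold change of 0.03.

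Of 41 genes for maintenance, transcription and RNA processing of mitochondrial DNA, 33 were listed and 0 had an unadjusted p under 0.05. The smallest p was in PNPT1, a mitochondrial RNA exonuclease (log2 fold change -0.49), and TFAM, which packages and transcribes the genome, was at -0.25. Of 15 regulators of nuclear respiratory genes 14 were listed, and GABPA, the DNA-binding subunit of GABP, was the only one (7.14%) at that p (log2 fold change -0.69, adjusted p = 0.365, limma). It was at 17.5, 9.74 and 7.28 CPM in control and 7.41, 6.13 and 5.58 CPM in overexpression replicates, so the groups overlapped and control replicate 1 lay far above the rest. NRF1 was at -0.20 and ESRRA at -0.05. Of 81 listed mitochondrial ribosomal proteins 4 (4.94%) were at that p, against 13.0% of all genes, with the smallest p in MRPL47 (log2 fold change -0.52), and the median was -0.01.

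The citric acid cycle and pyruvate dehydrogenase list held 31 listed genes of 33, with 3 (9.68%) at an unadjusted p under 0.05, against 13.0% of all genes, and 24 intervals (77.4%) inside a 2-fold change, against 77.3%. Neither share sets the list apart from all genes. The median log2 fold change was -0.05. PC, pyruvate carboxylase, which refills the cycle with oxaloacetate, was at 19.1, 21.4 and 25.9 CPM in control and 10.5, 10.01 and 14.5 CPM in overexpression replicates. Every overexpression library was below every control library (log2 fold change -0.88, standard error 0.21, adjusted p = 0.137, limma). PDK3, a kinase that inactivates pyruvate dehydrogenase, had a log2 fold change of 0.67. None of the 21 nuclear copies of mitochondrial DNA in the annotation was listed, nor was any mitochondrial ribosomal or transfer RNA.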

How the data were processed

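Total RNA of 3 control and 3 IGFBP2 overexpression replicates was sequenced with QuantSeq 3′ libraries (the labels give 100 ng of input, the study's methods another amount). The authors used bbduk for trimming, STAR for alignment to hg38 and HTSeq for counting (version 0.9.1 in the submitters' processing notes). The authors normalized the counts with edgeR, kept genes with an average CPM above 5 in at least 1 condition and deposited log2 values, log2(CPM + 1).

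The smallest step between values gave back the reads of each gene (100% whole within 0.01). Symbols and positions came from GENCODE 44 (10462 of 10487 identifiers matched), and 49 members have pseudogenes named after them. Limma (version 3.58.1, R 4.3.3) was fitted to these log2 values across the whole table, with a term for condition alone, no mean-variance trend and Benjamini-Hochberg adjustment at 0.05. Fold changes are on the log2(CPM + 1) scale, which understates those of low genes, and intervals are limma's 95% intervals. The planned edgeR and DESeq2 tests were not run. Because log2 values were deposited, limma served as the main test. Limma voom was the only test given the recovered reads, as weighted log values, and no test with a count model was run. The alternatives in scaling used CPM recomputed from those reads. Tables were made in Python 3.11.15 (pandas 2.3.3, scipy 1.17.1).

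The members and lists were chosen with earlier results of these data known. Genes were named by rule: IGFBP2, mitochondrial members, complex II, the 3 smallest p and the extremes of each other complex, isoform pairs, ATP5IF1, and the smallest p of each further list. A few single genes are counted but not reported here by name, and the plots of single genes leave them out. Other named genes were chosen after their values were seen. P-values rest on the spread between these replicates, which limma moderates for each gene with the variance pooled over all genes.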

Additional observations from a re-analysis of the deposited data

How the results depend on the processing

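The comparison was repeated under 17 alternatives, 16 planned and 1, setting the median of each chromosome equal across libraries, added after seeing the data. They covered scaling, the variance model, voom, the pseudocount, a filter at 10 CPM, a replicate block and the omission of each library. Of the 92 members, 0 were called in any of them, where the lowest and highest counts over all genes were 12 and 160 of 10487. At such shares, 0 calls do not set the members apart from all genes. The lowest adjusted p of a member was 0.0976 (NDUFA6, limma with a mean-variance trend). The nuclear median ranged from -0.10 to 0.02 and the mitochondrial median from -0.07 to 0.08, both extremes with a library left out, shifts smaller than the pooled SD of the library medians (0.10 and 0.14). Signs of single members are less stable, and 47 of 92 kept theirs throughout. With the replicate block 0 members and 55 genes were called, and SDHD had an adjusted p of 0.175 (limma). Same-numbered libraries deviated together only weakly (correlations of 0.17, -0.06 and 0.08). These values cannot show whether the numbers pair the libraries. IGFBP2 passed the threshold throughout. Not run were edgeR and DESeq2, whose size factors were replaced by medians of ratios, and a fit without a filter, since the table was already filtered. The study's own edgeR test of these libraries reported more transcripts under 0.05 after adjustment than any of these fits called. Whether members were among those transcripts was not examined here. Depth limits the low members most, SDHD with 26 to 57 reads per library.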
